A study of Mus musculus with 12 samples.

Results

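The cholesterol synthesis and transport genes were followed here as a set of 28 genes, chosen by symbol and present among the 23183 gene symbols listed for every library. They comprised 7 enzymes of the mevalonate pathway (Acat2, Hmgcs1, Mvk, Pmvk, Mvd, Idi1 and Fdps), 11 enzymes that turn farnesyl units into squalene, lanosterol and cholesterol (Fdft1, Sqle, Lss, Cyp51, Tm7sf2, Msmo1, Nsdhl, Hsd17b7, Ebp, Sc5d and Dhcr7), 6 genes of the sterol-sensing system (Srebf1, Srebf2, Insig1, Insig2, Scap and Stard4) and 4 genes of export, carriage and turnover (Abca1, Abcg1, Apoe and Cyp46a1). The question was how their transcript levels differed between cortex and hippocampus, and between irradiated and sham-irradiated mice within each region. RNA-seq had been performed on 12 libraries, 3 in each of 4 groups, from male C57BL/6 mice bought at 7 weeks of age and acclimatized for 1 week. The Con group was sham-irradiated and the IR group received 10 Gy to the head in a single exposure, and both were sampled 3 months later, in cortex and in hippocampus. Each group had held 10 mice, and the labels do not say how the 3 libraries of a group were drawn from them, so p-values measure the spread between these samples, which may be technical. Levels are FPKM (fragments scaled to transcript length and to the mapped fragments of the library), so that levels of different genes can be set side by side.

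The adult brain makes nearly all of its cholesterol itself, because lipoproteins of the blood do not cross the blood-brain barrier. Synthesis starts from acetyl-CoA, passes through mevalonate to isoprenoid units, and continues through squalene and lanosterol to cholesterol. The pathway is controlled at the endoplasmic reticulum. When sterols are scarce, SCAP escorts the SREBP factors (products of Srebf1 and Srebf2) to the Golgi for cleavage and they switch on the enzyme genes, and when sterols are plentiful the INSIG proteins hold SCAP back. Astrocytes load cholesterol onto APOE through the transporters ABCA1 and ABCG1, oligodendrocytes use it for myelin, and neurons dispose of the excess by hydroxylating it with CYP46A1, whose product leaves the brain.

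The summed FPKM of a library ranged from 359773 to 393447, and depth, read from the spacing of low values and set against replicate 1 of Con in the same region, was 1 in cortex Con replicate 1 and up to 1.05 in the other cortex libraries, 1 to 1.07 in hippocampus Con and 1.09 to 1.12 in hippocampus IR. This estimate does not compare depth between the regions. Labels of tissue and treatment were checked against marker genes. Prox1, a marker of dentate granule cells, was at 1.69 to 2.23 FPKM in the 6 cortex libraries and at 14.4 to 21.1 FPKM in the 6 hippocampus libraries. Cdkn1a, a p53 target known to respond to radiation, was at 5.67 to 6.32 FPKM in cortex Con and 12.7 to 16.8 in cortex IR, and at 2.00 to 2.27 in hippocampus Con and 6.06 to 6.25 in hippocampus IR. Markers of choroid plexus, a tissue that adjoins the hippocampus, set 3 libraries apart. Their sum over 7 genes was 443 FPKM in cortex IR replicate 2, 1080 in hippocampus Con replicate 2 and 1670 in hippocampus IR replicate 1, against 5.03 to 68.3 in the other 9 libraries. The value columns of cortex and hippocampus libraries carry different endings, so regional differences and a possible run difference cannot be told apart.

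**Figure D1:**
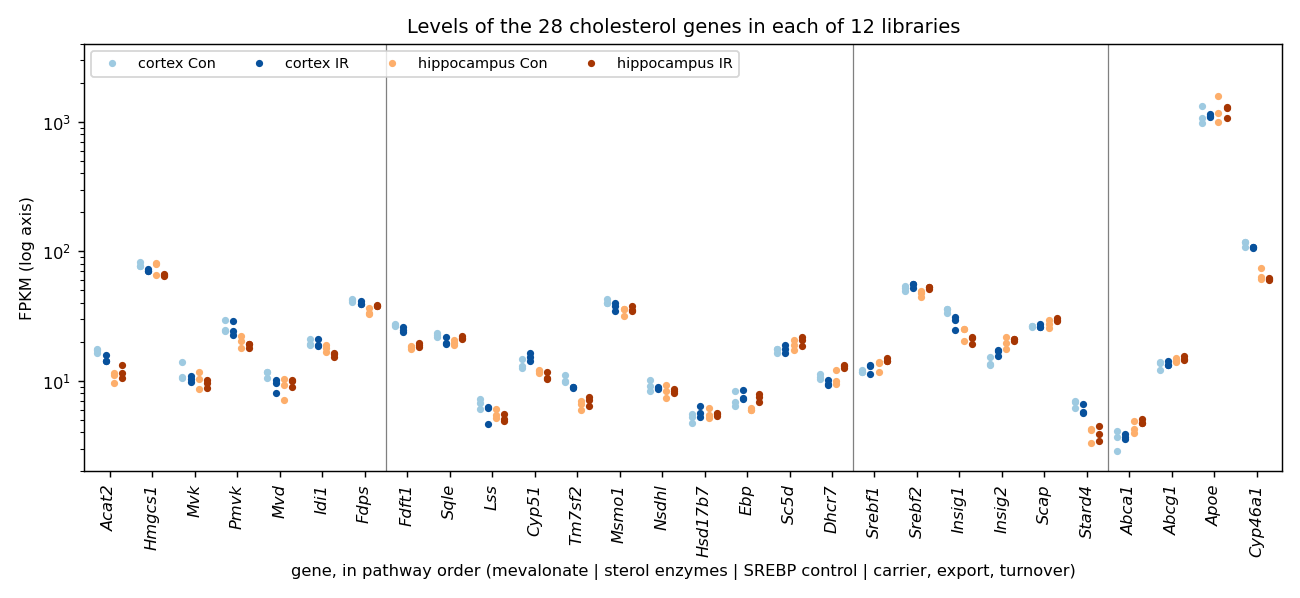
FPKM (log axis) of each of the 28 genes in pathway order, with the 3 libraries of each group as points of a single colour. Apoe lies at 989 to 1596 FPKM, far above all other genes shown, and Cyp46a1 shows a clear step between cortex and hippocampus.

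Every member was detected in every library, from Abca1 and Stard4 at the low end to Apoe at the high end. In cortex Con the most abundant was Apoe, the main lipid carrier of the brain, at 1125 ± 174 FPKM (SD, n = 3), followed by Cyp46a1, the neuronal cholesterol hydroxylase, at 115 ± 5.08, and Hmgcs1, the synthase that commits acetyl units to the mevalonate route, at 78.5 ± 3.23. Srebf2, which encodes the factor mainly tied to sterol synthesis, stood at 52.1 ± 2.12 FPKM, and Srebf1, whose product mainly serves fatty acid synthesis, at 11.9 ± 0.239. The lowest members of cortex Con were Hsd17b7, a sterol ketoreductase, at 5.18 ± 0.385 and Abca1 at 3.57 ± 0.625 FPKM. In hippocampus Con the order at the top was Apoe at 1255 ± 306, Hmgcs1 at 75.8 ± 8.72 and Cyp46a1 at 66.6 ± 6.68 FPKM, where the ranges of Hmgcs1 and Cyp46a1 overlapped. There the lowest were Abca1 at 4.39 ± 0.470 and Stard4, a soluble sterol carrier whose gene is a known SREBP target, at 3.90 ± 0.492 FPKM, and these ranges overlapped too. Over all 12 libraries, Scap ranged from 25.5 to 30.5 FPKM, Fdps from 32.7 to 42.9, Msmo1 from 31.5 to 42.9, Pmvk from 17.8 to 29.7 and Sc5d, a desaturase of the late pathway, from 16.3 to 21.7. Lower still were Abcg1 at 12.2 to 15.7 FPKM, Mvk, mevalonate kinase, at 8.70 to 13.9, Nsdhl, a sterol dehydrogenase, at 7.44 to 10.1 and Lss, lanosterol synthase, at 4.68 to 7.25. Replicates were tight for many members, such as Scap in cortex Con, with a coefficient of variation of 0.202%, and loose for a few, such as Apoe in hippocampus Con with 24.4%, where replicate 1 alone reached 1596 FPKM against 1162 and 1006.

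The promoters of several members are shown because the pathway is a textbook case of shared control from the start site. The sequences are the 250 bases before the annotated start, from RefSeq on build GRCm38.p6, written in the direction of transcription, and for Insig2 the outermost of its 3 listed starts was taken. Capitals mark the letters TCACNCCAC, a form of the sterol regulatory element bound by SREBP factors, and CCAAT, the box bound by NF-Y, a common partner of SREBP. Both strands were searched, so that ATTGG in capitals is a CCAAT box on the opposite strand, and the motifs do not overlap in the sequences printed.
Hmgcs1, chr13:119690101-119690350, plus strand: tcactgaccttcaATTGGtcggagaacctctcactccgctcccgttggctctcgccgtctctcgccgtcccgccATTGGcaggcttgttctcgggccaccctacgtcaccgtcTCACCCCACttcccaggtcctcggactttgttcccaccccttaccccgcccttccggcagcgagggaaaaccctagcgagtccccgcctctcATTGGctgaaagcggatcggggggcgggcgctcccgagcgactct
Mvd, chr8:122443423-122443672, minus strand: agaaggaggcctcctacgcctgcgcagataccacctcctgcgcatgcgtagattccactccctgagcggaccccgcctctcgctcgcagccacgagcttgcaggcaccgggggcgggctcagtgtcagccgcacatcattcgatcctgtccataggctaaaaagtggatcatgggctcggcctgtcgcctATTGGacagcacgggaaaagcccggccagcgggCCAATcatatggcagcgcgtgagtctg
Ebp, chrX:8193513-8193762, minus strand: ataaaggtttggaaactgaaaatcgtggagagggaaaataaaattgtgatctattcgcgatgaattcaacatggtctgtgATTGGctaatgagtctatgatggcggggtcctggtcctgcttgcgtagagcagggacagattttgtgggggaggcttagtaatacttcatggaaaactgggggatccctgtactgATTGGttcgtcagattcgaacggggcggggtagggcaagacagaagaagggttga
Insig2, chr1:121332590-121332839, minus strand: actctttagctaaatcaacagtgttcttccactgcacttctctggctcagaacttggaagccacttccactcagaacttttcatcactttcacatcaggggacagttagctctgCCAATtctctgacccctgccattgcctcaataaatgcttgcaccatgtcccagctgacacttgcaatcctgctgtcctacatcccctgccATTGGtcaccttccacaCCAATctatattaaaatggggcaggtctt
Cyp46a1, chr12:108334066-108334315, plus strand: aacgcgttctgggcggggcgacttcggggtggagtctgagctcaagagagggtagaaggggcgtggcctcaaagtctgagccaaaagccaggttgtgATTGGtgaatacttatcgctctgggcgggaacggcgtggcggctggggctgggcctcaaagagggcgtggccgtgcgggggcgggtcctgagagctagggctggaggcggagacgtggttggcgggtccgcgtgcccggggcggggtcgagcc
In Hmgcs1 the window held a match to the sterol regulatory element and 3 to the CCAAT box. The windows of the Insig2 starts not printed held no match to either motif. Of the 28 members, 23 had an entry in the promoter table (none for Fdps, Fdft1, Sqle, Stard4 and Abcg1). The sterol regulatory element as spelled here was found for 1 of these 23 members (4.35%) and for 1.23% of all 27025 genes, and the CCAAT box for 19 of 23 (82.6%) and for 37.5% of all genes, with a gene counted when any of its listed starts had a match. Counted over windows, 1.05% and 33.9% of all 32851 windows held them. These letters describe the windows and do not show binding.

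More members passed the test between hippocampus and cortex than between the treatment groups, and the same held for all genes tested. In Con mice 35.7% of the members were called between the regions (limma, adjusted p under 0.05), near the 36.3% of all genes. Between IR and Con, 0.725% of all genes were called in cortex and 0.0285% in hippocampus, and no member was. In Con mice, 9 of 28 members were lower in hippocampus than in cortex and 1 was higher (limma on log2(FPKM + 1), adjusted p under 0.05 over the 14169 genes tested). The lower members were led by Cyp46a1 and included 3 enzymes of the mevalonate route and 3 of the squalene and sterol route, and the single higher member was Insig2, which encodes a protein that retains SCAP. That is 32.1% of the members lower and 3.57% higher, where 17.3% of all genes tested were lower and 19% higher. The members' median log2 difference, hippocampus minus cortex, was -0.17, against 0.02 for all genes, and 16 of the 18 enzymes lay below 0. In bulk tissue, fewer cells of a type and less RNA per cell cannot be told apart.

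Cyp46a1 was at 117, 118 and 109 FPKM in the cortex Con libraries and at 74.1, 61.5 and 64.0 in the hippocampus Con libraries. The groups lay far apart, and the log2 difference was -0.78 ± 0.09 (SE, adjusted p = 1.31e-04), or 1.73-fold lower in hippocampus. Stard4 was at 6.81, 6.21 and 6.97 FPKM in cortex Con and 3.34, 4.14 and 4.24 in hippocampus Con, a log2 difference of -0.65 ± 0.10 (adjusted p = 8.99e-04). No hippocampus library reached the lowest cortex library.

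Among the enzymes, Acat2, the cytosolic thiolase that makes acetoacetyl-CoA, was at 16.3, 17.7 and 17.3 FPKM in cortex Con and 11.2, 9.62 and 11.4 in hippocampus Con. Its log2 difference was -0.63 ± 0.08 (adjusted p = 3.77e-04). Acat2 has a close copy, Acat3, listed at 10.3 FPKM on average, and reads of the pair could have been split between them. Tm7sf2, a sterol reductase of the late pathway, was at 11.0, 9.99 and 9.78 FPKM in cortex Con against 6.98, 5.93 and 6.63, and its log2 difference was -0.58 ± 0.09 (adjusted p = 7.53e-04). Fdft1, squalene synthase, was at 26.8, 27.7 and 26.5 FPKM against 18.6, 18.2 and 17.6, with a log2 difference of -0.55 ± 0.07 (adjusted p = 2.23e-04). In the annotation Fdft1 shares 774 exon bases (18.3% of its own) with Ctsb on the opposite strand, listed at 90.8 FPKM, Tm7sf2 shares 532 (12.1%) with Vps51 on the same strand, and Fdps shares 1124 (26.7%) with Gm43738 on the same strand, a gene not analysed here, and although the libraries were made with a directional kit, which keeps the strand, whether reads were counted by strand is not given in the sources used here. Smaller differences of the same direction were found for Pmvk, a kinase of the mevalonate route, at -0.36 ± 0.10 (adjusted p = 0.0237), Fdps, farnesyl diphosphate synthase, at -0.29 ± 0.07 (adjusted p = 0.0134), and Msmo1, a methylsterol monooxygenase, at -0.24 ± 0.08 (adjusted p = 0.0383). Over the 6 fits that left out a library, Msmo1 kept its call only without hippocampus Con replicate 3, Pmvk lost it without cortex Con replicate 2, hippocampus Con replicate 2 or hippocampus Con replicate 3, and Fdps without cortex Con replicate 1 or hippocampus Con replicate 2. Mvd, Sqle and Lss had log2 differences of -0.33, -0.20 and -0.23 with adjusted p of 0.0572, 0.0589 and 0.0787, and so did not pass. Mvd and Sqle did pass with quantile normalization, with median-ratio scaling and with all 12 libraries in a single fit, and Msmo1 lost its call with no filter and without the trend and robust prior.

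Both INSIG genes passed the test, and they went opposite ways between the regions. Insig1, a known SREBP target itself, was at 35.7, 33.2 and 36.0 FPKM in cortex Con and 25.3, 25.0 and 20.2 in hippocampus Con, a log2 difference of -0.56 ± 0.10 (adjusted p = 0.00156). Insig2 was at 13.3, 13.4 and 15.2 FPKM in cortex Con and 19.6, 21.7 and 17.8 in hippocampus Con, a difference of 0.47 ± 0.09 (adjusted p = 0.00361). The ratio of Insig1 to Insig2, a measure chosen after the values were seen and given with no test, was 2.51 ± 0.163 (SD, n = 3) in cortex Con and 1.19 ± 0.086 in hippocampus Con. The factors themselves did not pass the test, since Srebf2 had a log2 difference of -0.13 ± 0.08 (adjusted p = 0.197) and Srebf1 of 0.12 ± 0.09 (adjusted p = 0.297). Apoe had 0.14 ± 0.17 (adjusted p = 0.568), and without hippocampus Con replicate 1 its sign turned, to -0.05.

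**Figure D2:**
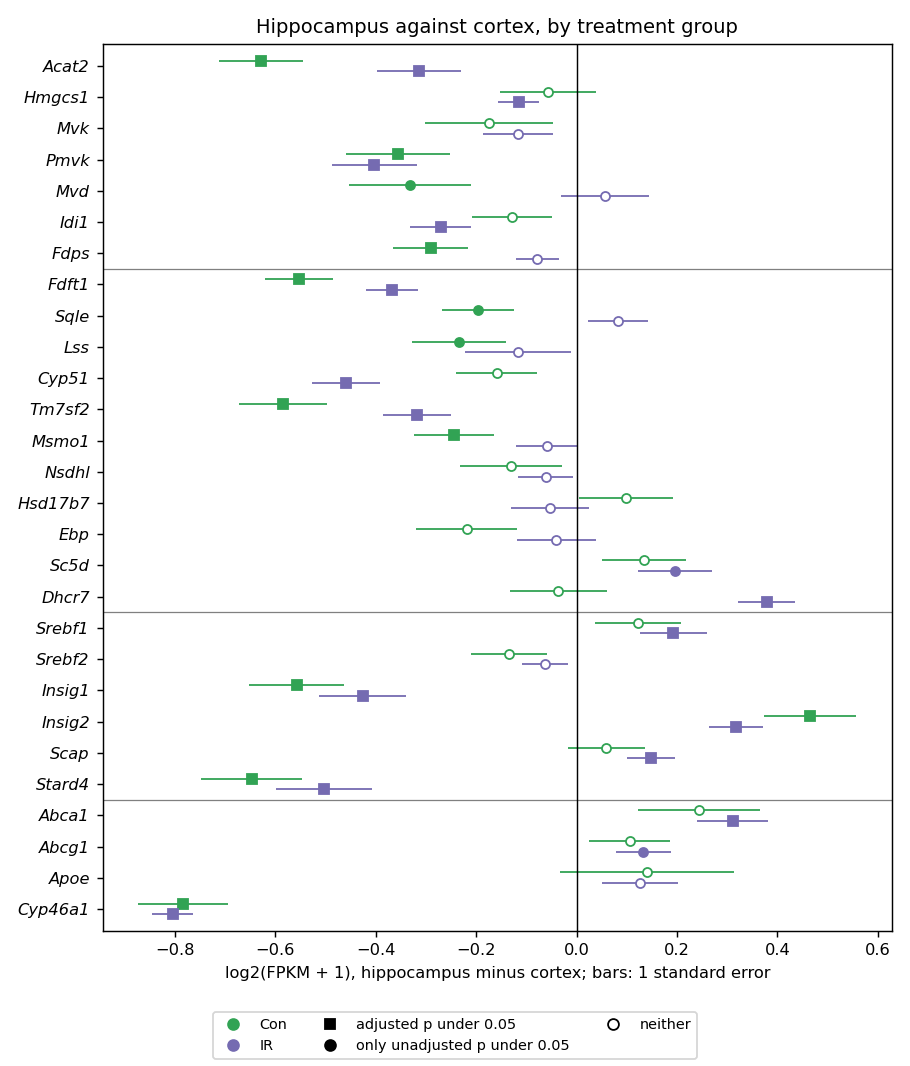
Difference in log2(FPKM + 1), hippocampus minus cortex, for each gene in Con (green) and IR (purple) mice, with bars of 1 standard error. Squares mark an adjusted p under 0.05, and Cyp46a1, Stard4 and Insig1 lie to the left and Insig2 to the right in both groups.

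In IR mice, a comparison that shares no library with the one in Con mice, 10 members were lower in hippocampus and 5 were higher. These are 35.7% and 17.9% of the members, where 23% and 23.7% of the 14173 genes tested were lower and higher. Of the 10 members called in Con mice, 8 were called again with the same direction, which is 80% of the Con calls and 53.3% of the IR calls, and over all genes 82.7% of the Con calls were called again with the same direction. Those 8 were Acat2, Pmvk, Fdft1, Tm7sf2, Insig1, Insig2, Stard4 and Cyp46a1. The members' median log2 difference was -0.06, against 0.00027 for all genes.

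Cyp46a1 stood at 106, 107 and 109 FPKM in cortex IR and at 60.0, 61.3 and 61.8 in hippocampus IR, a log2 difference of -0.80 ± 0.04 (adjusted p = 5.87e-07). Stard4 had -0.50 ± 0.10 (adjusted p = 0.00224), Insig1 -0.43 ± 0.09 (adjusted p = 0.00333), Pmvk -0.40 ± 0.08 (adjusted p = 0.00402), Fdft1 -0.37 ± 0.05 (adjusted p = 3.91e-04), Tm7sf2 -0.32 ± 0.07 (adjusted p = 0.00431) and Acat2 -0.31 ± 0.08 (adjusted p = 0.0134). Insig2 was higher in hippocampus by 0.32 ± 0.05 (adjusted p = 0.00112).

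The other 7 members passed in IR mice and not in Con mice. Cyp51, the lanosterol demethylase, was at 15.2, 14.3 and 16.3 FPKM in cortex IR and 10.6, 10.3 and 11.7 in hippocampus IR, a log2 difference of -0.46 ± 0.07 (adjusted p = 4.94e-04), where in Con mice the difference was -0.16 and did not pass. Dhcr7, the reductase of the last step to cholesterol, was at 9.30, 9.50 and 10.2 FPKM in cortex IR and 12.5, 13.2 and 12.9 in hippocampus IR, a difference of 0.38 ± 0.06 (adjusted p = 5.67e-04), and in Con mice its groups overlapped with a difference of -0.04. Abca1, the cholesterol exporter, was higher in hippocampus IR by 0.31 ± 0.07 (adjusted p = 0.00577). Idi1, the isomerase of the isoprenoid unit, was lower by a log2 difference of -0.27 ± 0.06 (adjusted p = 0.00525). The remaining calls were small and close to the threshold, namely Srebf1 at 0.19 ± 0.07 (adjusted p = 0.0389), Scap at 0.15 ± 0.05 (adjusted p = 0.0326) and Hmgcs1 at -0.12 ± 0.04 (adjusted p = 0.0446). Without cortex IR replicate 1, or without hippocampus IR replicate 2, these 3 were no longer called and 3 members were higher instead of 5. Over the 6 fits that left out a library, Hmgcs1 lost its call in 5, Srebf1 and Scap in 4 each, and Acat2 in 1, without cortex IR replicate 3. Passing in IR mice and not in Con mice does not show that the regional difference changed, and in the direct test of that change no member had an adjusted p under 0.05 (limma). Sc5d at 0.20 ± 0.07 (adjusted p = 0.0558) and Abcg1 at 0.13 ± 0.06 (adjusted p = 0.0764) did not pass. Srebf2 had -0.06 ± 0.05 (adjusted p = 0.296) and Apoe 0.13 ± 0.07 (adjusted p = 0.198).

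Neighbouring pathway genes that are no members were compared too, at an adjusted p under 0.05 (limma). Over all genes tested, 19% were higher and 17.3% lower in hippocampus Con, and 23.7% and 23% in hippocampus IR. Of the lists below, in that order, 30%, 40% and 47.4% were called in Con mice, against 36.3% of all genes. In IR mice the shares were 50%, 50% and 63.2%, against 46.7% of all genes. Among 10 other genes of isoprenoid and sterol metabolism and SREBP cleavage, 2 were higher and 1 lower in hippocampus Con, and 4 higher and 1 lower in hippocampus IR. The lower gene was in both Tmem97, a sterol-responsive membrane protein, at 12.4 against 5.76 FPKM in Con mice, a log2 difference of -0.995 ± 0.13 (adjusted p = 2.66e-04). Mbtps2, a membrane protease that frees SREBP, was higher in hippocampus Con by 0.39 ± 0.08 (adjusted p = 0.00525). Of 10 fatty acid synthesis genes known as SREBP targets, 4 were higher and none lower in hippocampus Con, and 4 were higher and 1 lower in hippocampus IR. In Con mice they were Me1 at 0.54 ± 0.07, Fasn at 0.30 ± 0.08, Fads2 at 0.24 ± 0.07 and Scd2 at 0.29 ± 0.09, with adjusted p of 3.29e-04, 0.0188, 0.0268 and 0.0295. Of 19 tested among 20 further genes of cholesterol handling, 6 were higher and 3 lower in hippocampus Con, and 7 higher and 5 lower in hippocampus IR. In Con mice, Osbpl1a, an oxysterol-binding protein, was at 152 against 40.0 FPKM, a log2 difference of -1.89 ± 0.12 (adjusted p = 3.11e-06). Cyp7b1, an oxysterol hydroxylase, was at 5.10 against 11.5, a difference of 1.05 ± 0.10 (adjusted p = 3.90e-05), and Lcat, which esterifies cholesterol on lipoproteins, was at 10.3 against 17.0, a difference of 0.66 ± 0.10 (adjusted p = 0.00102).

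Cell type markers were compared between the regions as well. For reference, 19% of all genes were higher and 17.3% lower in hippocampus Con at an adjusted p under 0.05 (limma), and 23.7% and 23% in hippocampus IR. At an unadjusted p under 0.05, 21.4% of all genes were lower in hippocampus Con and 27.3% higher in hippocampus IR. The summed level of 9 astrocyte markers was 689 to 819 FPKM in cortex Con and 856 to 941 in hippocampus Con, but its genes went both ways, with 4 higher and 2 lower in hippocampus Con (adjusted p under 0.05) and a median log2 difference of 0.04. Gfap and Gja1 were among the higher, at 1.55 ± 0.26 (adjusted p = 0.00366) and 0.63 ± 0.10 (adjusted p = 0.00111), and the lower were Aldh1l1, at -0.55 ± 0.07 (adjusted p = 3.61e-04), and Gjb6, at -0.37 ± 0.08 (adjusted p = 0.00494). In IR mice 3 astrocyte markers were higher and 3 lower in hippocampus. The sum of 9 neuron markers was 3080 to 3490 FPKM in cortex Con and 2950 to 3180 in hippocampus Con, which overlap. Of these 9 genes, 2 were higher and 1 lower in hippocampus Con, and 2 higher and 3 lower in hippocampus IR (adjusted p under 0.05). Of 6 markers of oligodendrocyte precursors, 2 were higher and 1 lower in hippocampus Con, and 3 higher and 1 lower in hippocampus IR. Of 7 endothelial markers, 0 passed in Con mice, with 1 lower at an unadjusted p under 0.05 (limma), and 3 were lower in hippocampus IR. All 5 choroid plexus markers tested lay above 0 in Con mice (median 1.79), where Kl passed, and all 6 tested in IR mice (median 1.01), where 0 passed and 1 was higher at an unadjusted p under 0.05 (limma). Of the fibroblast markers, 1 was higher and 2 lower in hippocampus Con, and 2 were higher in hippocampus IR. The sum of 10 markers of mature oligodendrocytes was 500 to 633 FPKM in cortex Con and 552 to 674 in hippocampus Con, which overlap too. There 1 of 10, Ermn, was higher in hippocampus, at 0.30 ± 0.10 (adjusted p = 0.0410), and 0 were lower. The sum was 590 to 723 in cortex IR and 454 to 579 in hippocampus IR, where 5 of 10 were lower in hippocampus (adjusted p under 0.05). No marker of any list was at 0 in all 3 libraries of a group. The part of these lists in the regional differences was not tested.

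In the cortex, no member differed between IR and Con mice at an adjusted p under 0.05, a level that 0.725% of the 14065 genes tested passed. At an unadjusted p under 0.05, 6 members were lower in cortex IR (21.4%, against 5.94% of all genes) and 2 were higher (7.14%, against 8.16%). The lower members were the enzyme genes Acat2, Hmgcs1, Mvd, Sqle and Tm7sf2 and the feedback gene Insig1, and the higher members were Cyp51 and Insig2. All 7 mevalonate enzymes and 14 of the 18 enzymes lay below 0, with a median log2 difference, IR minus Con, of -0.12 for the enzymes and -0.06 for all members, against 0.0016 for all genes. The IR and Con libraries did not overlap for 9 members lower and 1 higher in IR, where 9.09% and 11.2% of all genes separated in those directions.

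Insig1 had the largest difference below 0. It was at 35.7, 33.2 and 36.0 FPKM in cortex Con and at 24.8, 29.4 and 31.2 in cortex IR, so that every IR library was below every Con library, with a log2 difference of -0.29 ± 0.08 (unadjusted p = 0.00515, adjusted p = 0.165). Insig2 had the largest difference above 0. It was at 13.3, 13.4 and 15.2 FPKM in cortex Con and at 17.3, 16.9 and 15.6 in cortex IR, again without overlap, with a difference of 0.23 ± 0.07 (unadjusted p = 0.00745, adjusted p = 0.186). The ratio of Insig1 to Insig2, again with no test, was 2.51 ± 0.163 in cortex Con and 1.73 ± 0.282 in cortex IR (SD, n = 3). It was 1.29, 1.15 and 1.14 in the hippocampus Con libraries and 1.06, 0.914 and 1.03 in the hippocampus IR libraries, so that IR lay below Con in both regions. In hippocampus Insig1 was at 25.3, 25.0 and 20.2 FPKM in Con and 21.5, 19.2 and 21.9 in IR, and Insig2 at 19.6, 21.7 and 17.8 in Con and 20.4, 21 and 21.2 in IR, with overlap for both genes.

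Of the enzymes, Mvd, the decarboxylase that yields the isoprenoid unit, was at 10.5, 11.7 and 11.8 FPKM in cortex Con and at 8.05, 9.67 and 10.2 in cortex IR, a log2 difference of -0.26 ± 0.09 (unadjusted p = 0.0141, adjusted p = 0.231). Acat2 was at 16.3, 17.7 and 17.3 FPKM in Con and 14.2, 14.3 and 15.9 in IR, a difference of -0.20 ± 0.06 (unadjusted p = 0.0122, adjusted p = 0.220). Both genes had their groups apart, each by a gap smaller than the range of its IR libraries. Tm7sf2 was at 11.0, 9.99 and 9.78 FPKM in Con and at 8.98, 8.79 and 9.01 in IR, a difference of -0.18 ± 0.07 (unadjusted p = 0.0208, adjusted p = 0.266). Hmgcs1 was at 76.5, 76.8 and 82.3 FPKM in Con and at 70.8, 70.5 and 72.9 in IR, a difference of -0.14 ± 0.05 (unadjusted p = 0.0243, adjusted p = 0.278). These groups did not overlap either.

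Sqle, squalene epoxidase, was at 21.9, 23.6 and 22.7 FPKM in Con and at 19.6, 19.4 and 22.0 in IR, a difference of -0.15 ± 0.06 (unadjusted p = 0.0372, adjusted p = 0.319), and here the highest IR library lay among the Con libraries. Cyp51 differed in the other direction, at 12.9, 12.6 and 14.7 FPKM in Con and 15.2, 14.3 and 16.3 in IR, by 0.18 ± 0.07 (unadjusted p = 0.0401, adjusted p = 0.327), with 1 Con library above the lowest IR library. The remaining genes followed by name in each comparison did not pass, with log2 differences of 0.07 ± 0.05 for Srebf2 (adjusted p = 0.610), 0.07 ± 0.07 for Srebf1 (adjusted p = 0.697), -0.0049 ± 0.09 for Apoe (adjusted p = 0.988) and -0.10 ± 0.05 for Cyp46a1 (unadjusted p = 0.0839, adjusted p = 0.427). For Cyp46a1 every IR library was below every Con library, the nearest pair only narrowly, and it had an unadjusted p under 0.05 with quantile normalization and without cortex Con replicate 3. Apoe turned to 0.12 without cortex Con replicate 2 (limma, unadjusted p = 0.0288, adjusted p = 0.270). The counts depend on single libraries. Without cortex IR replicate 1, 4 of the 8 members were left, of which 3 were lower, and without cortex IR replicate 2, 4 were left, of which 2 were lower. Without cortex IR replicate 3, 9 members were lower and 1 was higher, and without cortex Con replicate 1 a single member was higher. Over all genes 8.69%, 11.7%, 12.3% and 13.2% had an unadjusted p under 0.05 in those fits, in that order, against 14.1% with all libraries.

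**Figure D3:**
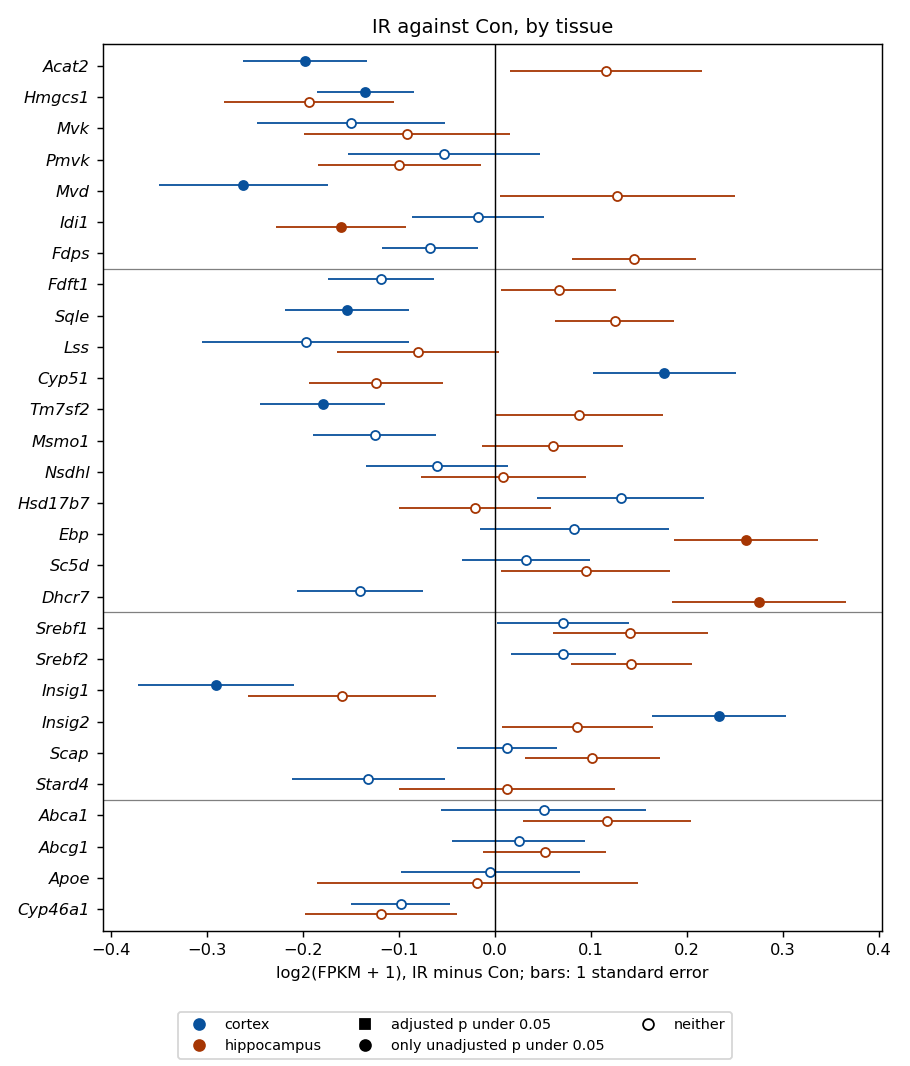
Difference in log2(FPKM + 1), IR minus Con, for each gene in cortex (blue) and hippocampus (brown), with bars of 1 standard error. No gene passed an adjusted p of 0.05, and filled circles mark an unadjusted p under 0.05, 8 in cortex and 3 in hippocampus.

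In the hippocampus, no member differed between IR and Con mice at an adjusted p under 0.05, which 0.0285% of the 14043 genes tested passed. At an unadjusted p under 0.05, 2 late enzymes of the sterol branch, Ebp and Dhcr7, were higher in hippocampus IR (7.14% of the members, against 7.06% of all genes) and the isoprenoid enzyme Idi1 was lower (3.57%, against 6.89%). These shares were near or below those of all genes. The libraries did not overlap for 6 members higher and 1 lower in IR, which is 21.4% and 3.57%, where 10.5% and 9.36% of all genes separated in those directions. The members' median log2 difference was 0.06, against -0.01 for all genes, and 11 of the 18 enzymes lay above 0.

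Dhcr7 had the largest difference above 0. It was at 9.48, 10 and 12.1 FPKM in hippocampus Con and at 12.5, 13.2 and 12.9 in hippocampus IR, a log2 difference of 0.28 ± 0.09 (unadjusted p = 0.0161, adjusted p = 0.295), with Con replicate 3 close below the IR libraries. Ebp, a sterol isomerase, was at 5.92, 5.94 and 6.18 FPKM in Con and at 7.89, 7.51 and 6.85 in IR, a difference of 0.26 ± 0.07 (unadjusted p = 0.00806, adjusted p = 0.262). Idi1 was at 18.1, 19.0 and 16.7 FPKM in Con and at 16.1, 16.3 and 15.3 in IR, a difference of -0.16 ± 0.07 (unadjusted p = 0.0456, adjusted p = 0.352). In all of these the groups were apart, by a small gap for Dhcr7 and Idi1.

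The member with the largest difference below 0 was Hmgcs1, at -0.19 ± 0.09 (unadjusted p = 0.0602, adjusted p = 0.374). Its Con libraries were at 80.2, 81.5 and 65.8 FPKM and its IR libraries at 66.4, 65.0 and 66.2, so that Con replicate 3 lay among the IR libraries. Srebf2 was at 44.7, 47.8 and 49.7 FPKM in Con and at 53.2, 51.3 and 52.7 in IR, a difference of 0.14 ± 0.06 (unadjusted p = 0.0544, adjusted p = 0.363), without overlap. Srebf1 had 0.14 ± 0.08 (adjusted p = 0.449), also without overlap. Apoe had -0.02 ± 0.17 (adjusted p = 0.967) and Cyp46a1 -0.12 ± 0.08 (adjusted p = 0.504), with overlapping groups for both. The hippocampal counts depended on single libraries, most on hippocampus Con replicate 3. Without it, 5 members were higher and 4 lower at an unadjusted p under 0.05, and Dhcr7 (log2 difference 0.37, adjusted p = 0.0301) and Hmgcs1 (-0.29, adjusted p = 0.0312) passed over all genes tested. Calls grew over all genes alike in that fit, in which 26% of the genes tested had an unadjusted p under 0.05 (13.9% with all libraries) and 6.33% an adjusted p under 0.05 (0.0285% with all libraries), so 9 and 2 of 28 members (32.1% and 7.14%) were near the background. Without Con replicate 2 or without IR replicate 2, Ebp alone was left, and without Con replicate 1 Ebp and Sqle were called. Without IR replicate 1 or IR replicate 3, Ebp and Dhcr7 were left. Without both libraries rich in choroid plexus markers (Con replicate 2 and IR replicate 1), a choice made after seeing the data, no member had an unadjusted p under 0.05, against 5.59% of all genes, and the members' median was 0.05.

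The difference between the regions in the response to irradiation was tested directly, as IR minus Con in hippocampus less IR minus Con in cortex. No member passed an adjusted p of 0.05, which 0.083% of the 14459 genes tested passed. At an unadjusted p under 0.05, 7 members had a positive difference (25% of the members, against 4.77% of all genes), namely Acat2, Mvd, Fdps, Fdft1, Sqle, Tm7sf2 and Dhcr7, and 1 had a negative difference, Cyp51 (3.57%, against 5.61%). All 8 are enzymes, spread over the mevalonate and the sterol segments. The median over the 18 enzymes was 0.15 and over all members 0.07, against -0.01 for all genes.

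Dhcr7 had the largest difference, 0.42 ± 0.11 (unadjusted p = 0.00258, adjusted p = 0.242). In cortex every IR library, at 9.30, 9.50 and 10.2 FPKM, was below every Con library, at 10.4, 11.3 and 10.7, and in hippocampus every IR library was above every Con library. Mvd had 0.39 ± 0.16 (unadjusted p = 0.0310, adjusted p = 0.438) and Acat2 0.31 ± 0.12 (unadjusted p = 0.0232, adjusted p = 0.414), and in hippocampus the groups of both overlapped. Sqle had 0.28 ± 0.09 (unadjusted p = 0.00715, adjusted p = 0.331), and its hippocampus libraries were at 20.6, 19.6 and 18.9 FPKM in Con and 21.04, 22.3 and 21.3 in IR, without overlap. Tm7sf2 had 0.27 ± 0.11 (unadjusted p = 0.0265, adjusted p = 0.423), Fdps 0.21 ± 0.08 (unadjusted p = 0.0164, adjusted p = 0.392) and Fdft1 0.19 ± 0.08 (unadjusted p = 0.0302, adjusted p = 0.434). Cyp51 had -0.30 ± 0.10 (unadjusted p = 0.0120, adjusted p = 0.371), with hippocampus libraries at 11.8, 12.2 and 11.6 FPKM in Con and 10.6, 10.3 and 11.7 in IR. Srebf2 and Srebf1 had 0.07 ± 0.08 (adjusted p = 0.781) and 0.07 ± 0.11 (adjusted p = 0.846), Apoe -0.01 ± 0.21 (adjusted p = 0.990) and Cyp46a1 -0.02 ± 0.10 (adjusted p = 0.961). These differences, and those of the regional comparisons in Con and IR mice, come from the same 12 libraries and are not separate evidence. Single libraries moved the count. Without hippocampus IR replicate 3, 3 members had a positive difference, without cortex IR replicate 1 or cortex IR replicate 2 there were 4, and without hippocampus Con replicate 3 there were 6 positive and 3 negative, with Dhcr7 at 0.51 (adjusted p = 0.0157). In that last fit 20% of all genes had an unadjusted p under 0.05 and 3.38% an adjusted p under 0.05, against 10.4% and 0.083% with all libraries. Without the 3 libraries rich in choroid plexus markers, 4 had a positive difference and 1 a negative one. Over all genes the share was 9.47% without hippocampus IR replicate 3, 7.47% without cortex IR replicate 1, 8.72% without cortex IR replicate 2 and 5.91% without the choroid-rich libraries.

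**Figure D4:**
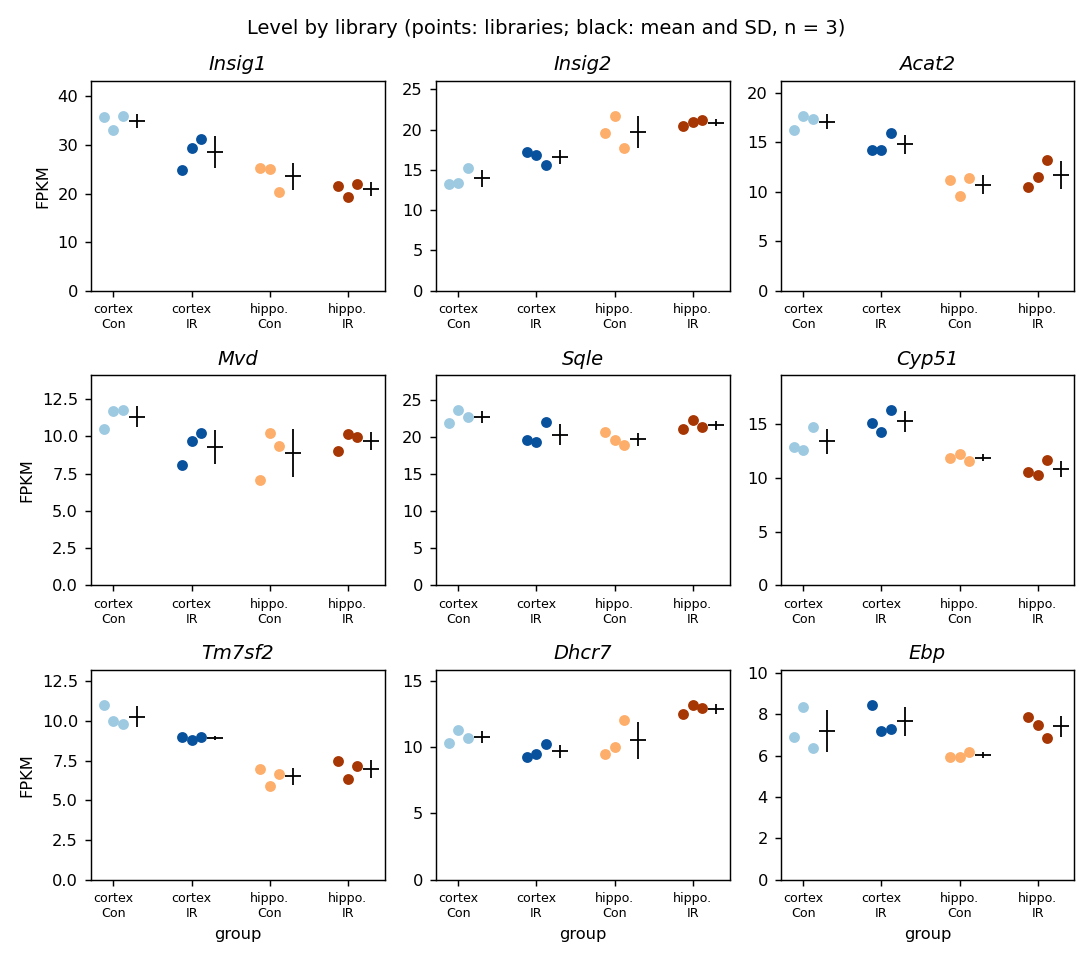
FPKM of 9 genes in each library by group, with the mean and SD of each group in black (n = 3). Cortex IR lies below cortex Con for Insig1, Acat2, Mvd, Tm7sf2 and Dhcr7 and above it for Insig2, and hippocampus IR lies above hippocampus Con for Sqle, Dhcr7 and Ebp.

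No member changed by the 1.5-fold criterion used in the study between IR and Con mice. The largest ratios of mean FPKM were 1.23 for Ebp and 1.22 for Dhcr7 in hippocampus, and the lowest 0.815 for Insig1 and 0.822 for Mvd in cortex. The 95% confidence interval of the log2 difference in cortex ran from -0.47 to -0.11 for Insig1 and from 0.08 to 0.39 for Insig2. In hippocampus it ran from 0.09 to 0.43 for Ebp and from 0.07 to 0.48 for Dhcr7. For Apoe in hippocampus it ran from -0.40 to 0.37, so that this comparison left changes of either direction undetected.

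The neighbouring pathway lists held no gene with an adjusted p under 0.05 in either irradiation comparison or in the test of their difference (limma). Over all genes, 8.16% were higher and 5.94% lower in cortex IR at an unadjusted p under 0.05, and 7.06% and 6.89% in hippocampus IR. In the test of the difference 4.77% were positive and 5.61% negative at that level. At an unadjusted p under 0.05, the 10 other isoprenoid and sterol genes gave 1 higher and 1 lower in cortex IR and 1 higher in hippocampus IR. The 10 fatty acid genes gave 1 higher in cortex IR and 0 in hippocampus IR. The 19 tested genes of cholesterol handling gave 4 higher in cortex IR, and 4 higher and 2 lower in hippocampus IR. In the test of the difference between the regions, 1 gene of cholesterol handling was positive and no other gene of these lists had an unadjusted p under 0.05. The lists' median log2 differences lay between 0.01 and 0.08 in the irradiation comparisons and between -0.019 and 0.0020 in the test of their difference.

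No cell type marker of the lists had an adjusted p under 0.05 between IR and Con in either region or in the test of the difference between the regions (limma), and counts in this paragraph are at an unadjusted p under 0.05. At that level 8.16% of all genes were higher and 5.94% lower in cortex IR, and 7.06% and 6.89% in hippocampus IR. In the test of the difference 4.77% of all genes were positive and 5.61% negative. The oligodendrocyte sum was 500 to 633 FPKM in cortex Con and 590 to 723 in cortex IR, and 552 to 674 in hippocampus Con and 454 to 579 in hippocampus IR, with overlap in both. Of its 10 genes, 4 were higher in cortex IR and 3 lower in hippocampus IR. In the test of the difference between the regions all 10 lay below 0 (median -0.39), 5 of them at that level. All 7 fibroblast markers lay above 0 in that test (median 0.40), 1 of them at that level, with sums of 29.8 to 44.3 FPKM in cortex Con, 23.8 to 38.9 in cortex IR, 28.7 to 44.6 in hippocampus Con and 36.6 to 59.9 in hippocampus IR. The sum of 8 microglia markers was 165 to 182 FPKM in cortex Con and 140 to 174 in cortex IR, which overlap, with 3 genes lower. In hippocampus it was 171 to 205 and 135 to 154, with 6 genes lower. The sum of 7 endothelial markers was 77.6 to 91.3 and 94.6 to 108 FPKM in the cortex, with 3 genes higher, and 66.8 to 74.9 and 81.9 to 85.6 in the hippocampus, with 2 higher. Astrocyte sums overlapped between IR and Con in both regions, while 2 of the 9 genes were higher in cortex IR, and 1 was higher and 3 were lower in hippocampus IR. The part of these lists in the differences of the cholesterol genes was not tested.

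**Figure D5:**
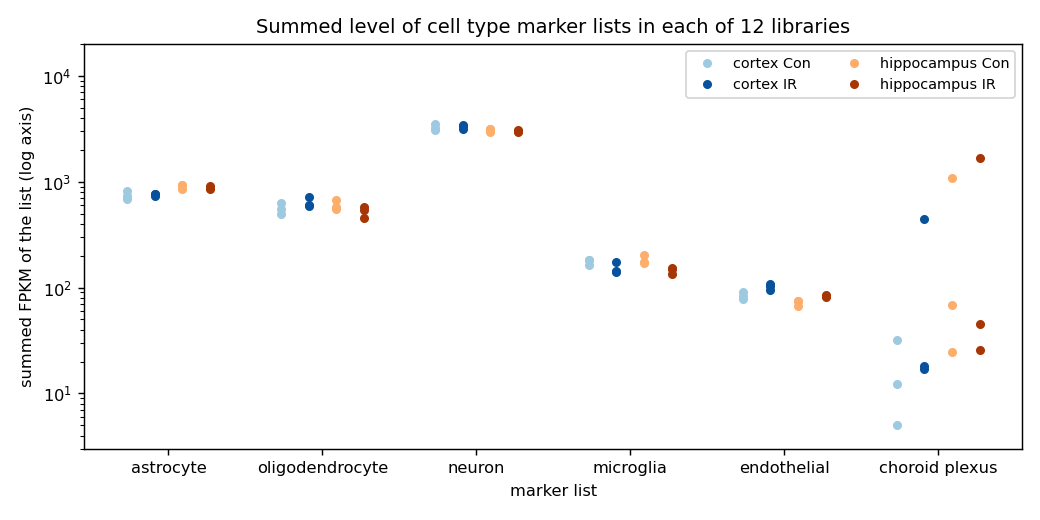
Summed FPKM (log axis) of 6 lists of cell type markers in each library, by group. The choroid plexus sum runs from 5.03 to 1670 FPKM with 3 libraries far above the rest, and the microglia sum is lower and the endothelial sum higher in hippocampus IR than in hippocampus Con.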

How the data were processed

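Gene expression was measured by RNA-seq in 12 libraries, 3 each of cortex Con, cortex IR, hippocampus Con and hippocampus IR, grouped by GEO's labels. The deposited values are FPKM per gene symbol. According to the methods and the submitters' processing notes, the authors aligned reads with TopHat to mm10, estimated levels with Cufflinks and applied geometric normalization. The annotation is not given in the sources used here, and neither is the strand setting of the counting, though the libraries were made with a directional kit. The labels name Trizol and total RNA where the methods name a column kit and poly(A) selection. Counts were not used here, so FPKM were not treated as counts and true depth is unknown. Relative depth within each region was estimated from the spacing of low values.

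Levels were compared as log2(FPKM + 1) with limma 3.58.1 in R 4.3.3 (intensity-dependent and robust prior variance, moderated test, two-sided), for genes that reached 0.5 FPKM in 3 or more of a comparison's 6 libraries, with Benjamini-Hochberg adjustment over all genes tested. The log scale with a pseudocount of 1 understates changes of low genes. The difference of the irradiation effects used all 12 libraries, with genes that passed in either tissue. All 28 members passed every filter. The fit was tested on simulated data. Alternatives were no filter, a filter of 1 FPKM in every library, a pseudocount of 0.1, quantile normalization, median-ratio scaling, limma without trend and robust prior, a replicate block, a single fit of 12 libraries, and each library left out. Cortex Con enters the cortical irradiation comparison and the regional comparison in Con mice, and likewise for the other groups, so those comparisons share libraries.

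FPKM were printed for every member, as values or as a range over libraries. Log2 differences were printed for members with an unadjusted p under 0.05, the largest in each direction, and Srebf1, Srebf2, Apoe and Cyp46a1, and for at most 5 called genes of other lists. The members and all gene lists were chosen with earlier results of these data known. Loci and shared exons came from GENCODE M21 and promoters from RefSeq (GRCm38.p6).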

Additional observations from a re-analysis of the deposited data

Results flagged for a closer look

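For 8 enzyme genes the difference between IR and Con mice was not the same in hippocampus and cortex at an unadjusted p under 0.05 (limma), and none of them had an adjusted p under 0.05 over the 14459 genes tested. The log2 difference, hippocampus effect less cortex effect, was 0.42 for Dhcr7, 0.39 for Mvd, 0.31 for Acat2, 0.28 for Sqle, 0.27 for Tm7sf2, 0.21 for Fdps and 0.19 for Fdft1, and -0.30 for Cyp51. For Dhcr7 the IR libraries were all below the Con libraries in cortex and all above them in hippocampus. Among all genes tested, 4.77% had a positive and 5.61% a negative difference at that level.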

How the results depend on the processing

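Over all alternatives and left-out libraries, 1015 of 1037 recomputed log2 differences of named members kept their direction. The 22 that turned belong to Apoe, Cyp46a1 and Srebf1, none of which had passed the test in the comparison concerned. The filters, the prior, the replicate block and the single fit leave a difference of group means unchanged, so they could not turn a sign. Most named members were also chosen by their p-value or size in these same data, so this tally does not measure robustness. With quantile normalization the Apoe difference became 0.13 for hippocampus IR against Con, -0.069 for hippocampus against cortex in Con and 0.13 for the difference of the irradiation effects, and that of Cyp46a1 for the latter became 0.076. With median-ratio scaling the difference of the irradiation effects became 0.0091 for Apoe and 0.0022 for Cyp46a1. Without the libraries rich in choroid plexus markers, an alternative added after seeing the data, Apoe was at 0.033 for hippocampus IR against Con and 0.025 for the difference of the irradiation effects.

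Over the fits that each left out a library, Apoe ran from -0.092 to 0.12 in cortex IR against Con, from -0.16 to 0.17 in hippocampus IR against Con, from -0.047 to 0.29 between regions in Con, and from -0.16 to 0.17 in the difference of the irradiation effects, where Cyp46a1 ran from -0.074 to 0.058 and Srebf1 from -0.0082 to 0.11. The 0.12 for Apoe in cortex, without cortex Con replicate 2, had an unadjusted p of 0.0288 and an adjusted p of 0.270 (limma). In cortex IR against Con, 1 to 2 members were higher and 2 to 9 lower. In hippocampus IR against Con, 1 to 5 were higher and 0 to 4 lower, with medians of 0.045 to 0.072. In the difference of the irradiation effects, 3 to 8 were positive and 1 to 3 negative, with medians of 0.041 to 0.11. Between regions in IR, 3 to 6 were higher, with medians of -0.091 to -0.051.

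In cortex IR against Con, 1 member was higher and 9 lower with quantile normalization, and 1 higher and 4 lower without the trend and robust prior, with 14.3% and 13.7% of all genes at an unadjusted p under 0.05 against 14.1% in the fit reported. In hippocampus IR against Con, 4 members were higher and 0 lower with quantile normalization (median 0.088), 5 higher and 0 lower with median-ratio scaling, 4 higher and 2 lower with all 12 libraries in a single fit, 0 lower without the trend and robust prior, and 0 higher and 0 lower without the libraries rich in choroid plexus markers. Over all genes the shares in those fits were 14.6%, 14.5%, 19.2%, 13.1% and 5.59%, in that order, against 13.9%. In the difference of the irradiation effects, 4 were positive without those libraries, and the median was 0.12 with quantile normalization. Between regions in IR, 3 were higher without the trend and robust prior and in the single fit. The causes of these shifts were not tested. Deviations of same-numbered libraries correlated at -0.39 to 0.20, and those of other-numbered libraries at -0.26 to 0.30. With 3 libraries a group, these values cannot decide whether same-numbered cortex and hippocampus libraries came from the same mouse. The labels do not say so, and the libraries were treated as unpaired. With the replicate block, the members at an unadjusted p under 0.05 in hippocampus IR against Con were 2 higher and 0 lower, those in cortex IR against Con 2 higher and 5 lower, and the 8 in the difference of the irradiation effects stayed the same members. Over all genes the shares with the block were 10.1%, 13.3% and 10.4%, in that order, against 13.9%, 14.1% and 10.4% without it. Between regions the block added Mvd in Con and lost Hmgcs1 and Srebf1 in IR. True depth is unknown, which limits statements on the lowest members, such as Abca1 and Stard4.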
